A study of Mus musculus with 34 samples.

Results

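The mesothelium is the flat epithelium that lines the body cavities and the organs in them, and its outer face carries a set of membrane proteins by which the cells are recognised. The 8 genes described here were taken as a named list, which was chosen with earlier results of these data known. All 8 were found among the 51826 genes of the deposited tables. They are Msln, Muc16, Upk1b, Upk3b, Lrrn4, Gpm6a, Nkain4 and Mpzl2. The study set out from the question of how transcription depends on the tissue that a cell comes from. It holds 34 RNA-seq libraries of sorted mouse cells in 12 groups, all with a GFP-negative label and none with a strain, age, genotype or treatment in the labels. Cells lacking CD45, CD31 and Epcam and carrying podoplanin were divided by PDGFRA. The positive cells, called fibroblasts, gave 25 libraries from 9 tissues, namely bone, lymph node, spleen and pancreas, the inguinal and brown fat pads, and 3 visceral fat depots (omentum, mesentery, epididymal). The negative cells, called mesothelial cells, gave 9 libraries from those same 3 visceral depots. The spleen and pancreas groups had 2 libraries, and all others 3. Nothing in the labels ties the libraries of a group to different animals. The spread behind each p-value is therefore that of libraries and may be technical.

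Mesothelin, the product of Msln, is a surface glycoprotein held by a lipid anchor, and the long membrane mucin Muc16, which carries the antigen CA125, is known to bind it. Upk1b and Upk3b encode uroplakins, proteins named for the plaques that stiffen the apical membrane of bladder urothelium. Upk1b is a tetraspanin, and in urothelium it pairs with a uroplakin of the third kind. Gpm6a encodes a proteolipid family glycoprotein best known from neurons. Lrrn4 encodes a transmembrane protein with leucine-rich repeats. Nkain4 encodes a protein named for its interaction with the sodium and potassium pump. Mpzl2 encodes an immunoglobulin-like adhesion molecule.

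Total counts ran from 28.7 to 42.3 M reads per library. Pdgfra followed the gate, with group means from 6.61 to 11.7 CPM (reads scaled to a common library total) in mesothelial cells and from 394 to 1195 CPM in fibroblasts, and Pdpn was present in all groups (176 to 587 CPM). The mesothelial label was checked against its markers: 13 of 14 listed markers were higher in mesothelial cells over the 3 depots (12.3% of genes called higher), the smallest adjusted p belonging to Krt7, Krt8, Cdh3 and Cldn15. Of 10 listed fibroblast genes, 6 were called lower (9.08% of genes), and Col1a1, Col1a2, Col3a1 and Dcn were not. The sum of these 10 was 22892 to 29281 CPM in mesothelial libraries and 34169 to 48792 CPM in fibroblast libraries of the same depots. Several libraries held pancreatic acinar transcripts. The summed level of 10 acinar genes was 38097 and 132594 CPM in the pancreas fibroblasts, 1041 to 3722 CPM in omentum fibroblasts, 774 to 3438 CPM in mesentery fibroblasts, 164 to 7112 CPM in mesentery mesothelial cells and 3 to 1928 CPM in omentum mesothelial cells. Spleen fibroblast replicate 1 held 824 CPM and replicate 2 held 5.71 CPM. In both epididymal groups the sum was at most 2.16 CPM.

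In GRCm38, with gene models of GENCODE M21, the members lie on 6 chromosomes and all are protein-coding. Msln (ENSMUSG00000063011) spans 25748613 to 25754378 on the minus strand of chromosome 17, and Muc16 (ENSMUSG00000109564) spans 18495455 to 18674530 on the minus strand of chromosome 9. Upk1b (ENSMUSG00000049436) lies at 38773184 to 38800328 on the minus strand of chromosome 16, and Upk3b (ENSMUSG00000042985) at 136038496 to 136046487 on the plus strand of chromosome 5. Lrrn4 (ENSMUSG00000043110) and Nkain4 (ENSMUSG00000027574) share chromosome 2 and its minus strand, at 132868305 to 132880891 and 180934772 to 180954699. Gpm6a (ENSMUSG00000031517) lies at 54954843 to 55060871 on the plus strand of chromosome 8, and Mpzl2 (ENSMUSG00000032092) at 45039799 to 45054015 on the plus strand of chromosome 9. Exons of Nkain4 and Mpzl2 overlap a gene on the opposite strand, Gm14341 and Gm48840. The sources used here do not say whether counting used strand, so reads of these pairs cannot be told apart.

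Upstream sequence is shown for 3 members because the levels of Upk3b and Lrrn4 moved together in omentum fibroblasts while that of Muc16 did not. RefSeq windows were found for 4 of the 8 members. Each run below gives the 220 bases from 250 to 31 bases before the RefSeq start, 5′ to 3′ on the strand of the gene, in GRCm38.p6. Upk3b is chr5:136038246-136038465 on the plus strand, Lrrn4 is chr2:132880893-132881112 on the minus strand and Muc16 is chr9:18674634-18674853 on the minus strand. Capitals mark matches to GGAATG on either strand, the core motif of TEAD factors, the DNA-binding partners of YAP.
Upk3b: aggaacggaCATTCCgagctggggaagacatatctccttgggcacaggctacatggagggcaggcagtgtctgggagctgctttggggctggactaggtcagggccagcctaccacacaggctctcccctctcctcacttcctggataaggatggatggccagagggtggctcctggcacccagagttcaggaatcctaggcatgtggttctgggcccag
Lrrn4: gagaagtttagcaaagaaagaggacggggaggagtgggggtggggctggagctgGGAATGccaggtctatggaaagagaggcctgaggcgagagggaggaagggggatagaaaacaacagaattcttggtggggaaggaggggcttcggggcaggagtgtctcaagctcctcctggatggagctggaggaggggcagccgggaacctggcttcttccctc
Muc16: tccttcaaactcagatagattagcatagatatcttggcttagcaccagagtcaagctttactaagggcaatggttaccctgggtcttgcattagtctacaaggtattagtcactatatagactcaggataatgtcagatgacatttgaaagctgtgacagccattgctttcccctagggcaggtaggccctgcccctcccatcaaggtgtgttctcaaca
The motif began 241 bases before the start in Upk3b and 196 bases before it in Lrrn4. It also occurred 125 bases before the upstream of 2 annotated starts of Gpm6a, and did not occur at the second start or in the Muc16 window. The upstream Gpm6a window (54779184 to 54779483) lies far before the gene start given above (54954843), and the second (54954478 to 54954777) lies just before that start. Of 32851 RefSeq windows of 300 bases, 14.7% held GGAATG on either strand. AGATAA, a spelling of the motif of the factor Gata4 and its relatives, was searched on both strands and occurred in 11.2% of all windows. It occurred in none of the 5 windows of members, so it could not overlap the TEAD motif there. Other spellings were not searched. These are matches of letters and not measured binding. The 3 runs were chosen by measured levels, and any relation of the motifs to the levels was not tested.

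All 8 members were higher in mesothelial cells than in fibroblasts, and the distributions did not touch: for each of the 8, the lowest of the 9 mesothelial libraries lay above the highest of the 25 fibroblast libraries. The distance between these nearest libraries was 28.0-fold for Upk1b, 26.0-fold for Msln, 16.3-fold for Muc16, 13.6-fold for Mpzl2, 11.3-fold for Upk3b, 8.80-fold for Gpm6a, 5.29-fold for Lrrn4 and 2.51-fold for Nkain4. Over the 3 depots that have both cell types, all 8 passed the test (adjusted p under 0.05 with a change of 1 or more on the log2 scale), against 12.3% of 25705 genes called higher. That share is of genes called, and the share of all genes whose libraries did not overlap was not counted. In bulk libraries such as these, fewer cells of a type and less RNA per cell cannot be told apart.

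**Figure D1:**
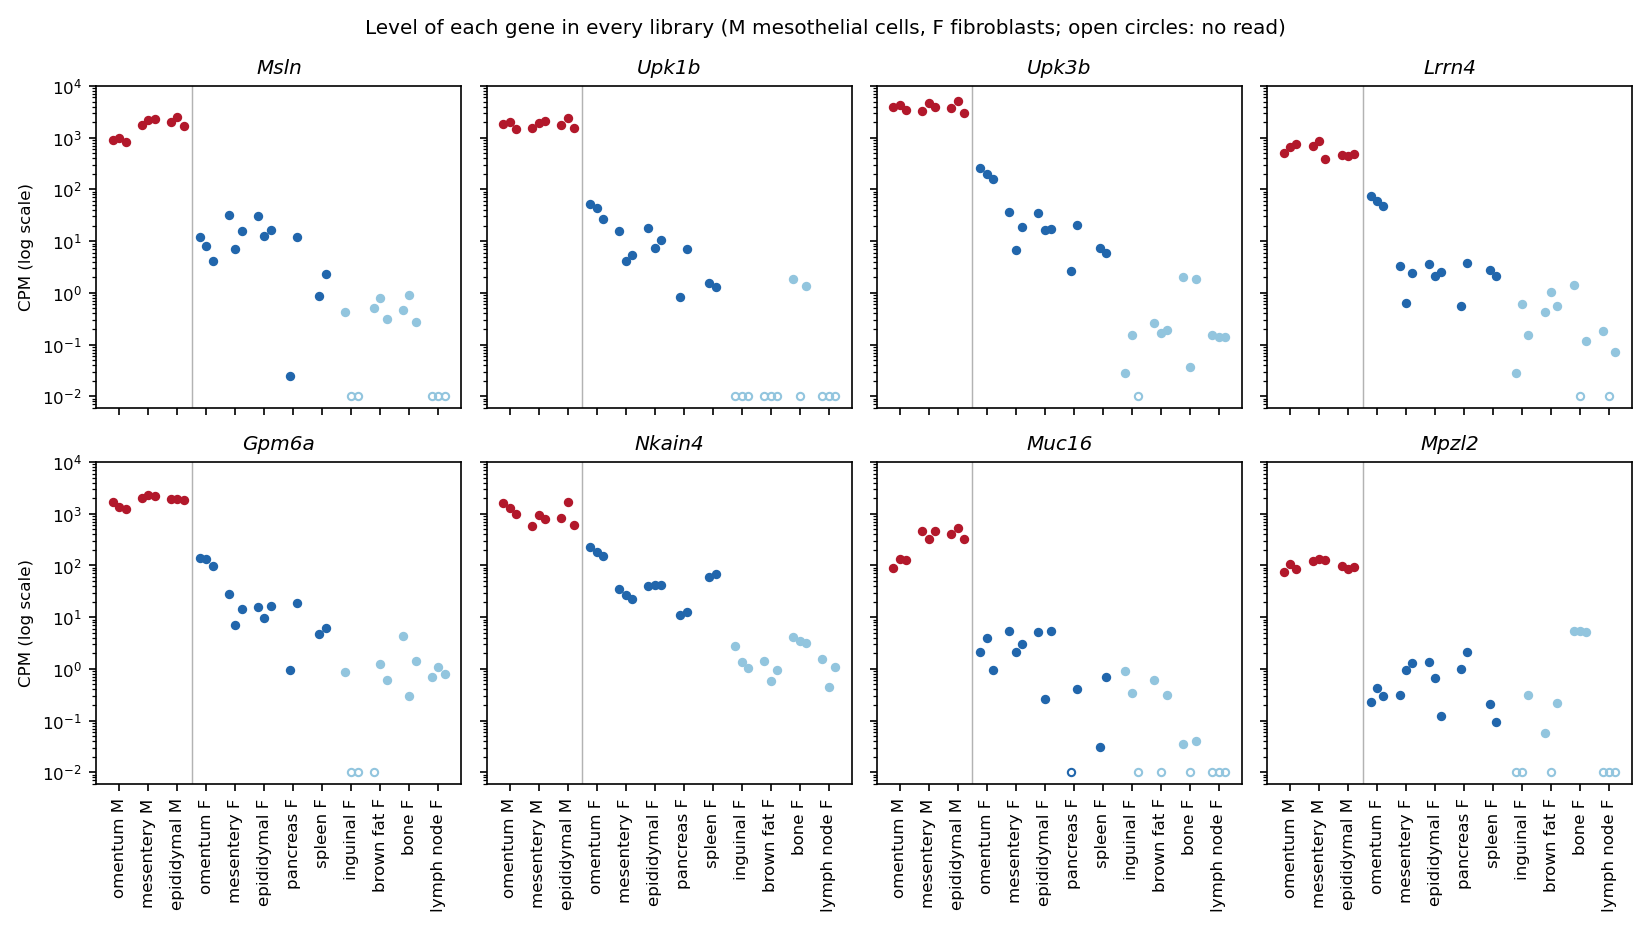
CPM of each gene in each of the 34 libraries, 1 point per library, on a log axis; red marks mesothelial cells (M), dark blue fibroblasts (F) of the peritoneal cavity and light blue other fibroblasts, and open circles at the bottom mark libraries with no read. In all 8 panels the red points lie above every blue point, most narrowly for Nkain4 (2.51-fold between the nearest libraries).

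Among the uroplakins, Upk3b was the most abundant member in mesothelial cells. Its libraries read 3899, 4239.9 and 3469 CPM in the omentum, 3304, 4733 and 3859 CPM in the mesentery and 3775, 5064 and 2977 CPM in epididymal fat. The 3 depots overlapped. Fibroblasts of the same depots read 263, 200.3 and 158 CPM, 36.0, 6.65 and 18.4 CPM, and 34.9, 16.8 and 16.8 CPM, and all omentum libraries lay above all others. The log2 fold change over the mean of the depots was 6.42 ± 0.36 (SE, adjusted p = 1.67e-15).

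Upk1b, the tetraspanin uroplakin, was as even across mesothelial depots, with 1860.5, 1995 and 1486 CPM in the omentum, 1543, 1955 and 2074 CPM in the mesentery and 1796, 2456 and 1554 CPM in epididymal fat. Omentum fibroblasts read 53.1, 43.0 and 27.1 CPM, mesentery fibroblasts 15.9, 4.16 and 5.40 CPM and epididymal fibroblasts 17.6, 7.46 and 10.4 CPM. The mesothelial libraries thus stood far above all of these, with a log2 fold change of 6.85 ± 0.43 (SE, adjusted p = 1.44e-10).

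The uroplakins that make up urothelial plaque together with these were nearly absent. Upk1a reached at most 0.276 CPM in any group mean and Upk2 at most 0.0943 CPM. Upk3a, the urothelial paralog of Upk3b, had mean levels of 0.543, 0.317 and 2.22 CPM in omentum, mesentery and epididymal mesothelial cells and no read in any of the 9 fibroblast libraries of these depots, so its mesothelial mean of 1.03 CPM was at least 106-fold higher than the limit of 3 reads over those libraries. That bound covers counting error only. Upk3a was called lower in omentum and in mesentery than in epididymal mesothelial cells (log2 fold changes -2.05 ± 0.44 and -2.84 ± 0.48, adjusted p = 0.0057 and 0.00161). Upk3bl, which lies 8004 bases from Upk3b with no coding gene in the gap, did not exceed 0.112 CPM in a group mean.

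Msln and Muc16, the pair that binds at the cell surface, differed between mesothelial depots. Msln libraries read 915, 983 and 823 CPM in the omentum, 1799.8, 2214 and 2299 CPM in the mesentery and 2034, 2500.1 and 1701 CPM in epididymal fat. Muc16 libraries read 87.6, 130.5 and 126 CPM in the omentum, 456, 320.4 and 473 CPM in the mesentery and 409, 529 and 332 CPM in epididymal fat. For both genes all 3 omentum libraries lay below all 6 others. Against epididymal cells, Muc16 was the single member called lower in the omentum (log2 fold change -1.89 ± 0.59, adjusted p = 0.0355), where 6.83% of genes were called lower and the median gene stood at -0.24. That call was lost when any of the 6 libraries compared was left out (adjusted p from 0.0521 to 0.0894), with DESeq2 (0.310) and without libraries of 1000 acinar CPM or more (log2 fold change -1.61, adjusted p = 0.0772). The Msln difference did not pass the test (-1.20 ± 0.69, adjusted p = 0.245).

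Against mesentery cells, edgeR called none of the 8 members and DESeq2 called none, where 5.15% of genes were called in either direction. By edgeR 2 of the 8 had an unadjusted p under 0.05, Muc16 and Nkain4. Nkain4 was the higher in the omentum (log2 fold change 0.74 ± 0.30, adjusted p = 0.155). Muc16 had a log2 fold change of -1.86 ± 0.59 (adjusted p = 0.0586) and Msln one of -1.21 ± 0.69 (adjusted p = 0.345). The fit over all 34 libraries shares its estimate of spread with the fibroblast groups. When edgeR was fitted to the 6 libraries compared, both genes were called lower in the omentum, against the mesentery (Msln -1.21 ± 0.23, adjusted p = 0.00569; Muc16 -1.85 ± 0.26, adjusted p = 0.000572; 5.57% of genes called) and against epididymal fat (Msln -1.10 ± 0.24, adjusted p = 0.0164; Muc16 -1.78 ± 0.27, adjusted p = 0.00177; 8.36% called). The summed level of 9 leukocyte genes also differed between these groups, at 636 to 774 CPM in omentum, 843 to 1862 CPM in mesentery and 106 to 251 CPM in epididymal mesothelial cells. Taken singly, in the fit over all 34 libraries, none of the 9 was called between omentum and mesentery cells. Their median log2 fold change there was 1.17, opposite in direction to the sum. Against epididymal cells 1 of the 9 was called higher in the omentum (Cd74, 2.88 ± 0.80, adjusted p = 0.0189). The part of these genes in the differences of Msln and Muc16 was not tested.

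Fibroblasts of the same depots had low and overlapping levels of both genes. Msln read 11.9, 7.89 and 4.10 CPM in the omentum, 31.7, 6.95 and 15.9 CPM in the mesentery and 31.2, 12.5 and 16.5 CPM in epididymal fat. Muc16 ran from 0.937 to 3.93 CPM, from 2.08 to 5.31 CPM and from 0.267 to 5.38 CPM in the same order. The mesothelial log2 fold change over the depots was 6.79 ± 0.51 for Msln (adjusted p = 1.21e-10) and 6.46 ± 0.43 for Muc16 (adjusted p = 6.42e-12). Mslnl, the paralog 282 bases from Msln, stayed at or below 0.349 CPM in group means. Of the other mucins listed, Muc4 and Muc15 stayed under 1 CPM, and Muc1, an epithelial membrane mucin, was highest in pancreas fibroblasts (58.9 CPM) beside their high acinar sum and did not exceed 1.76 CPM in mesothelial cells. The part of acinar RNA in that level was not tested.

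Gpm6a, Lrrn4 and Nkain4 had the nearest mesothelial and fibroblast libraries of the 8 genes. Gpm6a libraries of mesothelial cells read 1675, 1372 and 1241 CPM in the omentum, 2014, 2305 and 2254 CPM in the mesentery and 1965, 1909 and 1867 CPM in epididymal fat. The groups did not overlap, and no pair of depots was called (adjusted p from 0.649 to 0.906). Fibroblasts read 141, 135 and 99.7 CPM in the omentum, 27.9, 7.19 and 14.1 CPM in the mesentery and 15.7, 9.69 and 16.4 CPM in epididymal fat, and the log2 fold change of mesothelial cells was 5.89 ± 0.47 (SE, adjusted p = 1.64e-10). Gpm6b, the close paralog of Gpm6a, showed the opposite direction, with 2.60 to 6.55 CPM in mesothelial group means and 89.8 to 273 CPM in fibroblasts of the same depots (log2 fold change -5.07 ± 0.15, adjusted p = 1.87e-23). Within a library, Gpm6a reads per Gpm6b read averaged 221, 971 and 487 in omentum, mesentery and epididymal mesothelial cells, 1.12 in omentum fibroblasts and 0.179 and 0.0505 in mesentery and epididymal fibroblasts.

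Lrrn4 libraries read 507, 662 and 759.9 CPM in omentum, 699, 861 and 396 CPM in mesentery and 457, 441 and 487 CPM in epididymal mesothelial cells. Fibroblast libraries read 74.8, 60.0 and 46.8 CPM in the omentum, 3.28, 0.624 and 2.40 CPM in the mesentery and 3.68, 2.08 and 2.57 CPM in epididymal fat. Omentum fibroblasts thus stood between mesothelial cells and the fibroblasts of the other depots, with no overlap on either side. The log2 fold change of mesothelial cells was 6.35 ± 0.35 (SE, adjusted p = 3.15e-15). The related genes Lrrn2 and Lrrn4cl were lower in mesothelial cells, by log2 fold changes of -2.23 ± 0.24 and -1.93 ± 0.12 (adjusted p = 1.82e-09 and 2.88e-15). Lrrn1 was also called lower (-2.35 ± 0.92, adjusted p = 0.0398), with 19.3 CPM in epididymal fibroblasts and at most 0.470 CPM in the other 5 groups of these depots, and Lrrn3 was not called.

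Nkain4 libraries read 1602, 1282 and 988 CPM in omentum, 572, 946 and 801 CPM in mesentery and 814, 1668 and 609.8 CPM in epididymal mesothelial cells. Its fibroblast levels were the highest of the 8 genes per kb of exon in each of the 3 depots: 152 CPM per kb in omentum, 22.7 in mesentery and 33.3 in epididymal fat. The libraries behind these means read 227, 186 and 151 CPM, 35.1, 27.1 and 22.2 CPM, and 39.6, 42.7 and 41.4 CPM. The log2 fold change of mesothelial cells was 4.07 ± 0.20 (SE, adjusted p = 3.07e-17), the smallest estimate of the 8. The paralogs Nkain1 and Nkain2 stayed under 1 CPM in all groups and Nkain3 reached 1.39 CPM in spleen fibroblasts.

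Mpzl2, the adhesion molecule, was the least abundant with Muc16 per kb of exon and had the largest fold change estimate. Mesothelial libraries read 74.8, 106 and 86.4 CPM in the omentum, 123, 132 and 130.2 CPM in the mesentery and 96.3, 84.1 and 93.0 CPM in epididymal fat, against 0.124 to 1.38 CPM over the 9 fibroblast libraries of these depots. The log2 fold change was 7.48 ± 0.29 (SE, adjusted p = 1.75e-20). Mpzl3, its neighbour at a distance of 1170 bases, was also higher in mesothelial cells (6.32 to 7.59 CPM in group means against 1.16 to 2.42 CPM, log2 fold change 2.09 ± 0.27, adjusted p = 8.96e-08). Mpzl1 was not called (log2 fold change 0.01 ± 0.16, adjusted p = 1).

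Per kb of exon, the order of mean levels in mesothelial cells began with Upk3b in each depot (1096, 1123 and 1116 CPM per kb in the omentum, mesentery and epididymal fat). Upk1b stood at 852 to 926 CPM per kb, Nkain4 at 624 to 1042, Gpm6a at 445 to 681, Msln at 296 to 687 and Lrrn4 at 124 to 175. Mpzl2 (12.8 to 18.5 CPM per kb) and Muc16 (4.35 to 16.1 CPM per kb) were the lowest in all 3 depots. Of 23 relatives listed, 19 passed the filter on low counts, 5 were called higher in mesothelial cells (12.3% of genes) and 4 lower (9.08%), with a median log2 fold change of 0.07, against 6.44 for the members and 0.11 for all genes tested. Besides Upk3a, Mpzl3 and Mslnl, the relatives called higher were the tetraspanins Tspan8 (6.2 ± 0.32, adjusted p = 4.79e-18) and Tspan13 (3.96 ± 0.30, adjusted p = 5.28e-12). Tspan8 was uneven between depots, with 94.3 CPM in epididymal, 14.5 CPM in mesentery and 9.67 CPM in omentum mesothelial cells. In all, 9 of the 23 relatives stayed under 1 CPM in each group.

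**Figure D2:**
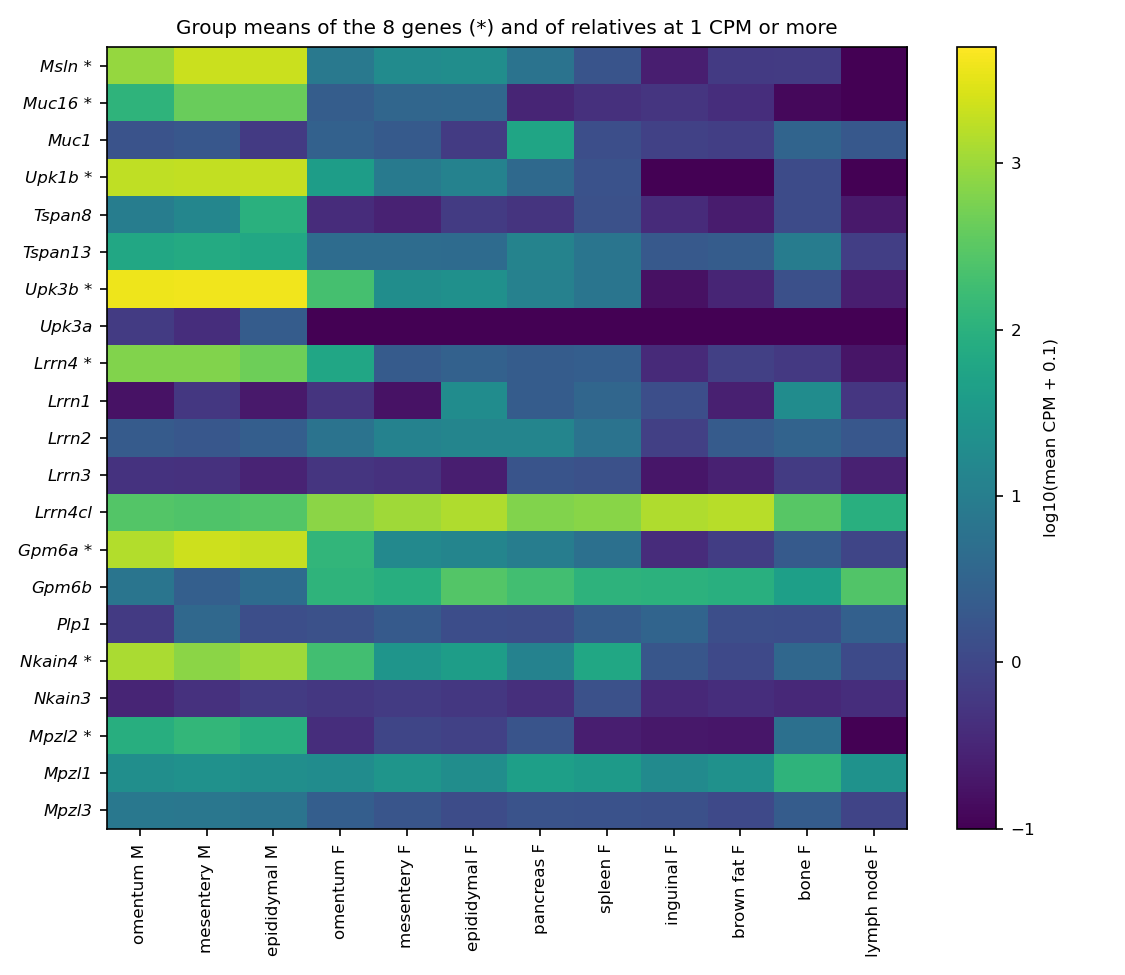
Mean level in the 12 groups, as log10(CPM + 0.1), of the 8 genes (starred) and of relatives that reached 1 CPM in a group; columns are groups (M mesothelial, F fibroblasts) and rows are ordered by family. Gpm6b is dark (2.60 to 6.55 CPM) in the 3 mesothelial columns where Gpm6a is bright.

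Taken depot by depot, all 8 members were higher in mesothelial cells of the omentum (8.1% of genes called higher), mesentery (10.8%) and epididymal fat (16.6%), where the median of all genes was itself 0.33. The median log2 fold change of the 8 was 4.83 for omentum, 7.17 for mesentery and 7.06 for epididymal cells, and that of all genes -0.09, 0.09 and 0.33. The size of the difference varied with depot for 4 of the 8 by a test of the interaction itself, against 10.9% of genes. Lrrn4 differed by 3.41 ± 0.51 in omentum, 8.25 ± 0.66 in mesentery and 7.39 ± 0.63 in epididymal fat (interaction adjusted p = 4.20e-05). Upk3b differed by 4.22 ± 0.56, 7.60 ± 0.66 and 7.43 ± 0.65 in the same order (0.00179), Nkain4 by 2.78 ± 0.32, 4.78 ± 0.36 and 4.64 ± 0.35 (0.00223), and Gpm6a by 3.51 ± 0.72, 7.06 ± 0.86 and 7.10 ± 0.86 (0.0190). All 4 had their smallest difference in the omentum. The Gpm6a call was lost with DESeq2 (adjusted p = 0.124) and without omentum mesothelial replicate 2 (0.0594).

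For the other 4 the interaction was not called. Upk1b had the same order (5.44 ± 0.70, 7.76 ± 0.78 and 7.36 ± 0.77, interaction adjusted p = 0.128), and passed when the 18 libraries of these 6 groups were fitted alone (0.0171, 12.7% of genes) and without mesentery fibroblast replicate 1 (0.0462). Msln differed by 6.83 ± 0.89, 6.85 ± 0.89 and 6.70 ± 0.88 (interaction adjusted p = 1), Muc16 by 5.61 ± 0.72, 6.89 ± 0.75 and 6.89 ± 0.76 (0.476) and Mpzl2 by 8.13 ± 0.53, 7.28 ± 0.48 and 7.02 ± 0.49 (0.515).

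**Figure D3:**
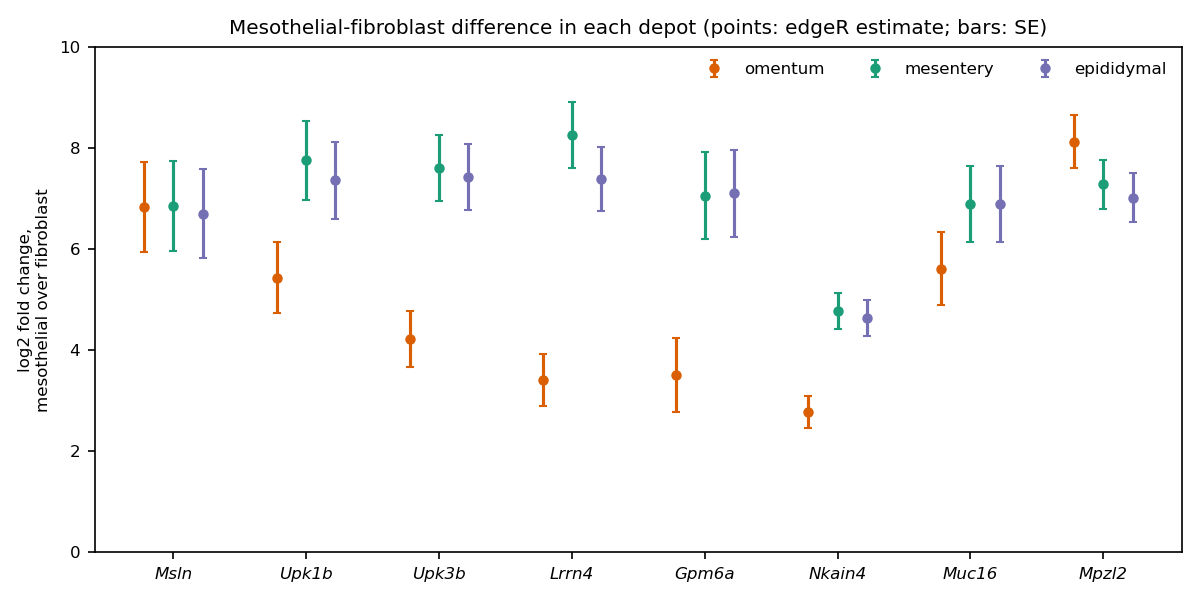
Log2 fold change of mesothelial cells over fibroblasts of the same depot for each gene, with SE bars, in omentum (orange), mesentery (green) and epididymal fat (purple). The omentum estimate is the lowest of the 3 for Upk3b, Lrrn4, Gpm6a and Nkain4 (2.78 to 4.22), while for Msln the 3 estimates lie between 6.70 and 6.85.

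Mesothelial levels of Lrrn4, Upk3b, Nkain4 and Gpm6a were not called different between depots, which does not show that they were equal. All omentum mesothelial libraries of Nkain4 (988 to 1602 CPM) lay above those of the mesentery (572 to 946 CPM). Those of Lrrn4 (507 to 760 CPM) lay above the epididymal ones (441 to 487 CPM), and those of Gpm6a (1241 to 1675 CPM) below both other depots. For Upk3b the depots overlapped. Omentum fibroblasts stood apart from the other fibroblasts. The comparisons of omentum with mesentery and with epididymal fibroblasts share the omentum libraries. Omentum fibroblasts exceeded mesentery fibroblasts in 5 of 8 members (5.64% of genes called higher): Lrrn4 by a log2 fold change of 4.83 ± 0.58 (adjusted p = 6.60e-07), Upk3b by 3.34 ± 0.54 (5.35e-05), Gpm6a by 2.93 ± 0.71 (0.00773), Nkain4 by 2.74 ± 0.33 (3.13e-07) and Upk1b by 2.26 ± 0.62 (0.0239). The median over the 8 was 2.5 and over all genes 0.02. Against epididymal fibroblasts 4 of 8 were called higher (5.39% of genes), Lrrn4 by 4.45 ± 0.57 (adjusted p = 1.74e-06), Upk3b by 3.18 ± 0.54 (8.76e-05), Gpm6a by 3.17 ± 0.73 (0.00422) and Nkain4 by 2.19 ± 0.32 (8.39e-06), with a median of 2 against 0.09. Upk1b missed the threshold there (1.80 ± 0.61, adjusted p = 0.0708) and passed it in the fit of the 6 libraries compared (0.0102, 11.7% of genes). For these 5 genes each omentum library lay above all 6 libraries of the other depots. For Msln, Muc16 and Mpzl2 the libraries overlapped. The share of all genes with such a separation was not counted. Without mesentery fibroblast replicate 2, Upk1b and Gpm6a were no longer called against the mesentery (adjusted p = 0.105 and 0.0540), and Upk1b was also lost without mesentery fibroblast replicate 3 (0.108) or omentum fibroblast replicate 1 (0.0760).

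Between mesentery and epididymal fibroblasts edgeR called no member, with none of 8 at an unadjusted p under 0.05 and none called by DESeq2 (2.57% of genes called). The same held between mesentery and epididymal mesothelial cells, where edgeR and DESeq2 called none and none had an unadjusted p under 0.05 (4.18% of genes called).

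Expressed as a share of the mesothelial mean of the same depot, omentum fibroblasts held 14.6% ± 2.97 of Nkain4, 9.42% ± 2.17 of Lrrn4, 8.76% ± 1.56 of Gpm6a, 5.35% ± 1.35 of Upk3b and 2.31% ± 0.735 of Upk1b (SD, n = 3 libraries). The same libraries held 2.02% ± 1.32 of Muc16, 0.877% ± 0.429 of Msln and 0.353% ± 0.111 of Mpzl2. The highest and lowest of these shares were 41.4-fold apart. In mesentery and epididymal fibroblasts 7 of the 8 shares lay between 0.322% and 0.965%, and Nkain4 stood above them at 3.64% ± 0.843 and 4% ± 0.15. Each SD is that of the fibroblast libraries and leaves out the spread behind the mesothelial mean. For Nkain4 in epididymal fat the mesothelial libraries ran from 610 to 1668 CPM.

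**Figure D4:**
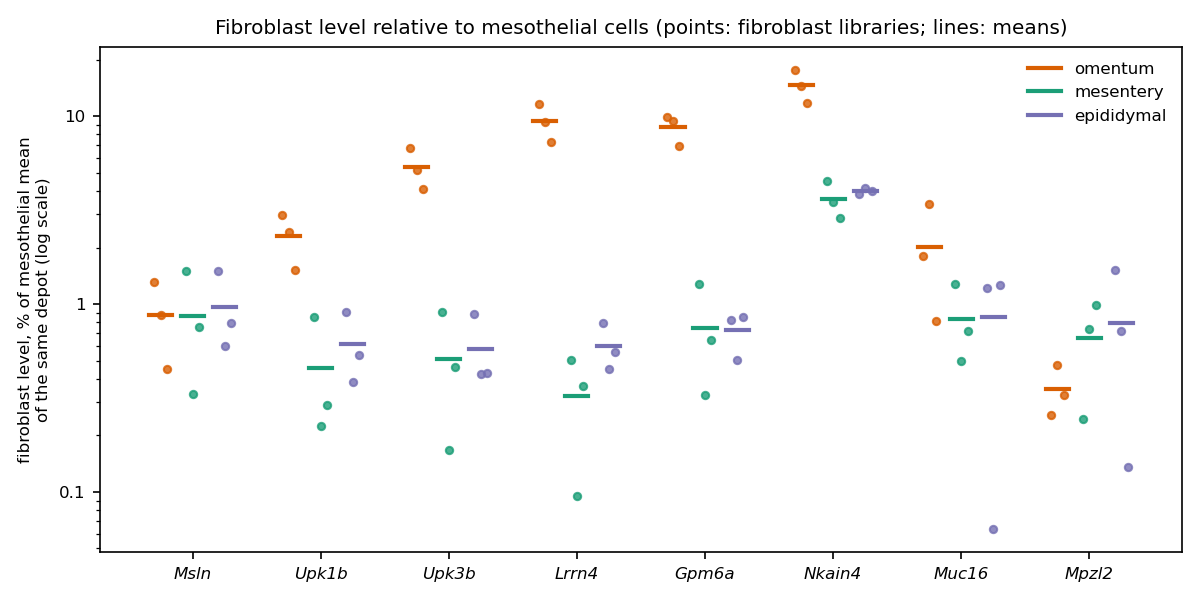
Level in each fibroblast library as a percentage of the mesothelial mean of the same depot, on a log axis, with a line at the mean of 3 libraries, for omentum (orange), mesentery (green) and epididymal fat (purple). The omentum points stand apart for Upk1b, Upk3b, Lrrn4, Gpm6a and Nkain4, with means from 2.31% to 14.6%, and overlap the others for Msln, Muc16 and Mpzl2.

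Mesothelial markers outside the 8 genes were also unequal in fibroblasts of each depot. The highest and lowest of their shares were 229-fold apart in the omentum, 124-fold in the mesentery and 127-fold in epididymal fat. In omentum fibroblasts the transcription factor Wt1 stood at 98.3% of its mesothelial level and the retinaldehyde dehydrogenase Aldh1a2 at 99.0%. Dsp stood at 50.1%, Bnc1 at 25.9%, Rspo1 at 22.3%, Pkhd1l1 at 10.4%, Cdh3 at 8.48%, Cldn15 at 6.76% and Slpi at 5.12%. The mesothelial keratins stood there at 5.06% (Krt19), 1.81% (Krt7), 0.872% (Krt8) and 0.432% (Krt18). In mesentery and epididymal fibroblasts Wt1 stood at 20.8% and 31.3%, Aldh1a2 at 26.7% and 10.1%, Dsp at 36.9% and 54.0% and Krt18 at 0.993% and 0.687%. Of the 14 listed markers 7 were called higher in omentum than in mesentery fibroblasts and 5 higher than in epididymal fibroblasts, and the summed level of the list was 833 to 1012 CPM, 171 to 244 CPM and 151 to 219 CPM in these groups, with Calb2 at 0 in omentum and epididymal fibroblasts. Markers of other cells moved with depot too. The summed level of 9 leukocyte genes was 399 to 559 CPM in omentum fibroblasts, 17.4 to 46.9 CPM in mesentery and 36.9 to 90.1 CPM in epididymal fibroblasts, none of the genes being at 0, and the acinar sum was 1041 to 3722, 774 to 3438 and 0.625 to 1.04 CPM. Their part in the omentum levels was not tested.

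A ratio of 2 genes within a library does not depend on the scaling of that library. Msln reads per Upk3b read were 0.235 in omentum mesothelial cells (0.232 to 0.237 over 3 libraries), 0.536 in the mesentery (0.468 to 0.596) and 0.535 in epididymal fat (0.494 to 0.571). In fibroblasts the ratio was 0.0368 in the omentum (0.0259 to 0.0452), 0.930 in the mesentery (0.865 to 1.04) and 0.872 in epididymal fat (0.743 to 0.978). Omentum cells of both kinds had the lower ratio, and within each depot fibroblasts and mesothelial cells did not overlap: in the omentum the fibroblast ratio was the lower of the 2, in the other depots the higher. No test was run on these ratios.

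**Figure D5:**
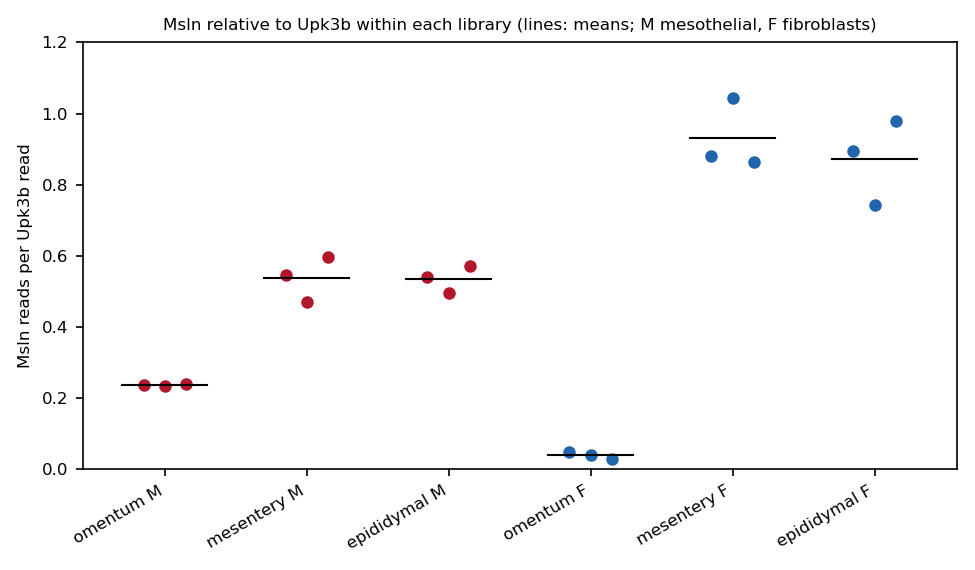
Msln reads divided by Upk3b reads in each of 18 libraries, with a line at the mean of each group of 3; red marks mesothelial cells (M) and blue fibroblasts (F). The 3 omentum fibroblast libraries lie at 0.0259 to 0.0452, below the omentum mesothelial libraries, and the mesentery and epididymal fibroblast libraries lie at 0.743 to 1.04, above the mesothelial libraries of their depots.

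Fibroblasts of visceral fat were also compared with those of other tissues. Over the 3 visceral fat depots against the 2 that the labels class as subcutaneous, inguinal and brown adipose tissue, all 8 were called higher (4.29% of genes), with a median log2 fold change of 5.57 against -0.10 for all genes. Upk1b had no read in any of the 6 subcutaneous libraries, so its visceral mean of 20.4 CPM was at least 1523-fold higher than the limit of 3 reads over them, and with that bound in place of its estimate the median was the same. The bound is for the mean of 3 unequal depots, at 41.0 CPM in omentum, 8.49 CPM in mesentery and 11.8 CPM in epididymal fibroblasts. It covers counting error only. Upk3b differed by 8.62 ± 0.60 (adjusted p = 2.89e-12), Gpm6a by 6.15 ± 0.67 (2.01e-07), Msln by 5.63 ± 0.74 (4.93e-06), Nkain4 by 5.52 ± 0.27 (7.77e-16), Lrrn4 by 4.06 ± 0.48 (2.29e-07), Muc16 by 3.08 ± 0.61 (0.000717) and Mpzl2 by 2.49 ± 0.59 (0.00246). The libraries of both classes overlapped for Lrrn4, Muc16 and Mpzl2. The mesothelial marker list moved the same way, with 12 of 14 called higher and summed levels of 79.1 to 144 CPM in inguinal and 40.1 to 65.3 CPM in brown fat fibroblasts. Of the lists of other cell types, 4 of 5 mural genes were called higher and 1 lower (summed level 61.7 to 259 CPM in the visceral and 11.4 to 53 CPM in the subcutaneous libraries). Higher calls fell on 3 of 9 leukocyte genes (17.4 to 559 and 9.61 to 31.3 CPM) and on 2 of 10 acinar genes (0.625 to 3722 and 0.126 to 0.767 CPM). Their part in the levels of the 8 genes was not tested. Levels of Mpzl2 were low on either side, at means of 0.627 and 0.0982 CPM.

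In the spleen Nkain4 stood at 58.8 and 67.0 CPM. Both spleen libraries lay above all mesentery and epididymal fibroblast libraries and below all omentum libraries, and the other members read at most 7.22 CPM there. The spleen libraries held 6.10% of the mean mesothelial level of Nkain4 and at most 0.417% of that of any other member. In bone Mpzl2 stood at 5.31, 5.50 and 5.21 CPM. These 3 libraries lay above all 22 other fibroblast libraries, where the highest value was 2.15 CPM in pancreas replicate 2, and stood at 5.19% of the mean mesothelial level. Mpzl1 was also highest in bone among the 12 groups (116 CPM). Over the 9 fibroblast tissues all 8 members were called as varying, in a comparison where 44% of genes were.

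Lymph node fibroblasts had no read of Msln, Upk1b, Muc16 or Mpzl2, which allows up to 0.0319 CPM for each. Upk3b read 0.141 to 0.154 CPM there, Lrrn4 0 to 0.184 CPM, Gpm6a 0.707 to 1.10 CPM and Nkain4 0.452 to 1.57 CPM. In the pancreas the 2 libraries disagreed: Msln read 0.0245 and 11.9 CPM, Upk3b 2.67 and 20.3 CPM, Upk1b 0.833 and 6.93 CPM, Gpm6a 0.956 and 18.6 CPM and Lrrn4 0.564 and 3.84 CPM, while Nkain4 read 11.1 and 12.9 CPM. Replicate 2, the higher for all 8, also held the larger acinar sum (132594 against 38097 CPM), leukocyte sum (419 against 20 CPM), endothelial sum (148 against 8.47 CPM) and mesothelial marker sum (356 against 320.5 CPM). Their part in the difference was not tested.

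Grouping the fibroblasts by anatomy, the 5 tissues of the peritoneal cavity against inguinal fat, brown adipose tissue, bone and lymph node, all 8 were called higher (4.75% of genes). Because 4 members had no read in a whole group of the second set, fold changes are given for the other 4 only: Upk3b 6.70 ± 0.41 (adjusted p = 8.80e-14), Nkain4 4.78 ± 0.19 (3.15e-18), Gpm6a 4.50 ± 0.45 (4.57e-08) and Lrrn4 3.90 ± 0.40 (9.82e-09). For Upk3b and Nkain4 all 13 libraries of the cavity lay above all 12 others. The mean level was 10.7 against 0.310 CPM for Msln, 13.3 against 0.269 CPM for Upk1b and 1.99 against 0.187 CPM for Muc16. For Mpzl2 the mean levels ran the other way, 0.722 against 1.38 CPM, with 5.34 CPM in bone, while the fitted averages of log values, in which the lymph node has no read, ran upwards, so no direction is read from its call. With pancreas replicate 2 left out, Msln (adjusted p = 0.251) and Muc16 (1) were no longer called, Muc16 was also lost without spleen replicate 2 (0.428) and Mpzl2 without spleen replicate 1 (0.115).

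The 8 profiles resembled each other across the 12 groups, since all separate 3 mesothelial from 9 fibroblast groups. Pearson correlations of log2 CPM group means ran from 0.785 (Nkain4 and Mpzl2) to 0.994 (Upk1b and Upk3b) over 28 pairs, with a median of 0.947. Within the 9 fibroblast tissues alone they ran from 0.0926 (Muc16 and Mpzl2) to 0.983 (Upk1b and Upk3b), with a median of 0.820. Among 10119 genes reaching 10 CPM in a group mean, the 8 members left out, Pkhd1l1 was the most similar to Lrrn4 (0.990), Upk3b (0.980) and Upk1b (0.975), Ddo to Nkain4 (0.980), Tuft1 to Gpm6a (0.980), Rasal2 to Mpzl2 (0.976), Ttc12 to Msln (0.971) and Mif4gd to Muc16 (0.970). The next were Bnc1 and Scn3b for Lrrn4, Ddo and Fam110c for Upk3b, Tuft1 and Cyp2s1 for Upk1b, Wt1os and Pkhd1l1 for Nkain4, Fgf1 and Tagap for Gpm6a, Perp and Syngr1 for Mpzl2, Gpi1 and Mif4gd for Msln, and Ncoa4 and Gpi1 for Muc16. These correlations are descriptions over group means that share libraries and depth.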

How the data were processed

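Polyadenylated RNA of 34 libraries was analysed. The deposited files hold whole-number read counts per gene, described as unique alignments per the file headers; the submitters' processing notes name Salmon and GRCm38, so the step that gave the counts is unresolved. No counting annotation, strand setting or filter is given in the sources used here. Symbols were matched for 51633 of 51826 identifiers.

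The main test was edgeR 4.0.16 (R 4.3.3), glmQLFit with robust estimation and TMM scaling, after filterByExpr with a minimum count of 10 (25705 genes), over all libraries in a single fit by group, with Benjamini-Hochberg adjustment over all genes tested. In the between-depot and 9-tissue tests, a change is the largest minus the smallest group effect. CPM use TMM-scaled totals, and marker sums unscaled totals. Overlap of libraries was examined for the 8 members only, so no share over all genes is given for it. Sequences are from RefSeq (GRCm38.p6). Simulated counts with 50 genes changed at each fold gave 50 recovered at 4-fold and 26 at 2-fold for mesothelial against fibroblast cells over 22904 genes (3 false calls), and 48 and 4 for omentum against mesentery fibroblasts over 22847 genes (8 false calls). The simulation set the same spread for every gene and changed only genes above a minimum expected count. Its recovery therefore need not hold for the 8 members, whose own spread was not simulated.

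The members and lists were chosen with earlier results of these data known. Named genes are the 8 members, relatives at 1 CPM or more, the sort markers, Wt1, 4 mesothelial markers by adjusted p and the 3 most similar genes per member; other genes were named after their values were seen. A relative that is counted in the list is not reported here. Alternatives were DESeq2 1.42.0, its size factors, no filter, the libraries compared alone, a replicate block, and leaving out each library or those with 1000 acinar CPM or more.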

Additional observations from a re-analysis of the deposited data

Results flagged for a closer look

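The mesothelial minus fibroblast difference varied between omentum, mesentery and epididymal fat, by edgeR's test of the interaction, for Lrrn4 (adjusted p = 4.20e-05), Upk3b (0.00179), Nkain4 (0.00223) and Gpm6a (0.0190). In each of these 4 genes the omentum difference was the smallest, with all 3 omentum fibroblast libraries above all mesentery and epididymal fibroblast libraries. The share of all genes separated in that way was not counted. The Gpm6a call was lost with DESeq2.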

How the results depend on the processing

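All 8 members were called higher in mesothelial cells, over the depots and in each depot, under all alternatives that could be fitted. Of 1848 fold changes of members under alternatives, 1815 kept their side of the threshold, 18 lost and 15 gained a call, and none that was called reversed; 62 uncalled values changed sign, in 4 comparisons. Without libraries of 1000 acinar CPM or more, omentum and pancreas fibroblasts could not be fitted, so that alternative says nothing of them. It left only replicate 2 of the mesentery fibroblasts and only replicate 3 of the mesentery mesothelial cells. The mesentery comparison of the cell types then had no replicates. Upk3b had a log2 fold change of -1.82 between mesentery and epididymal fibroblasts there, with its lowest mesentery fibroblast level (6.65 CPM) in the library that was left. Members called lower in omentum than in epididymal mesothelial cells numbered 1, against 2 without the filter or with the libraries compared alone, 0 with DESeq2 or without the acinar libraries and 0 with each library left out; against mesentery cells they numbered 0, and 2 without the filter or with the libraries compared alone. Without the filter 1 member (Msln) was lower in omentum than in mesentery or epididymal fibroblasts. Members higher in omentum than in mesentery fibroblasts numbered 3 to 5 with each library left out (3 without mesentery fibroblast replicate 2). The between-depot test called 6 members without the filter, 5 with the libraries compared alone, 3 with DESeq2 and 3 to 5 with each library left out. Mesothelial and fibroblast libraries of a depot were correlated as deviations from their group means. The r ran from -0.25 to 0.23 over 9 same-numbered pairs and from -0.24 to 0.20 over 18 other pairs. With deviations from means of 3 libraries, this cannot exclude pairing. The replicate block left 4 members called between depots and 8 over the depots and changed no call of a member. Of 184 fibroblast shares, 4 moved, all of Nkain4 in epididymal fat (3.32% to 5.79%). With 2 or 3 libraries a group, levels of a few reads limit Upk1b, Muc16 and Mpzl2 outside the cavity; the causes of lost calls were not tested.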
